A study of Xenopus laevis with 37 samples.

Results

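The genes described here are 9 named features, of 40271 in the whole table, from Xenopus laevis (African clawed frog) embryos. They were higher in the libraries labelled foregut mesoderm (FG_meso) than in the other tissue layers. They are asb9.L, cda.L, tcf21.L, MGC84183.S, trim16.L, sh3bgrl2.S, sel1l3.S, tmem119.L and Xetrov90024887m.S. They were chosen by their mean level, in TPM (transcript abundance scaled to a common library total), in 4 groups of separated layers. A gene was chosen at a mean of at least 10 TPM in FG_meso and, after adding 1 to each mean, at least 4 times the mean of foregut endoderm (FG_endo), hindgut endoderm (HG_endo) and hindgut mesoderm (HG_meso). In all, 24 features passed these values. Of these, 8 carry only a gene model or locus number, and 6 were set aside by name (agr2.L, agr2.S, ag1.L, ag1.S, pitx1.L and hand2.S). The letters .L and .S mark the homeologs, the copies of a gene on the long and short chromosome of each pair in this tetraploid frog.

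The study measured polyadenylated RNA of explants at stage NF20 in 37 libraries of 15 groups, to ask how Wnt and BMP signals pattern the foregut and the hindgut. Between NF12 and NF20 the embryos lay in vehicle (DMSO), 40 µM DMH1 or 60 µM BIO, and whole foregut (FG) and hindgut (HG) explants were then taken, with 3 libraries in each of FG_DMSO, FG_DMH1, FG_BIO, HG_DMSO, HG_DMH1 and HG_BIO. DMH1 blocks BMP type I receptors, and BIO blocks GSK3 and so activates Wnt signalling. A second experiment used the heat-inducible transgene hsp:Dkk1GFP, which encodes a secreted Wnt antagonist: explants heated for 30 min at 37 °C and then kept at 13 °C (FG_HSdkk1 and HG_HSdkk1) were set beside unheated ones (FG_noHS and HG_noHS), with 2 libraries a group. FG_endo, FG_meso, HG_endo and HG_meso hold 2 libraries each, and whole dorsal explants (Dorsal) hold 3. The genotype field says wild type for all of them, also for the heated embryos. No heated library without the transgene was analysed here, and the tissue field of HG_meso says endoderm, so that group rests on its title.

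The lateral plate mesoderm beside the foregut gives rise to the heart, the first myeloid cells and the muscle and connective tissue of the gut wall. Among the members, tcf21 (also called capsulin, epicardin or Pod-1) encodes a basic helix-loop-helix factor of mesenchyme, known in the mouse from the epicardium, kidney, lung and branchial arch muscle. Tmem119 encodes a membrane protein known in the mouse from osteoblast differentiation and as a marker of microglia. The others are not tissue factors: cda encodes cytidine deaminase of pyrimidine salvage, asb9 an ankyrin repeat and SOCS box protein that brings substrates to a ubiquitin ligase, and trim16 a tripartite motif protein without a RING domain. Sh3bgrl2 belongs to the thioredoxin-fold SH3BGR family, and sel1l3 carries Sel1 repeats. MGC84183 is a clone name and Xetrov90024887m a gene model name, so no role is given for either.

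All libraries sum to nearly the same total, 999208 to 999778 TPM, and hold 15182 to 22769 features at 1 TPM or more. TPM keeps no read depth, so counting error is unknown. Replicates of a group correlated across features at 0.927 to 0.983 on the log2(TPM + 1) scale. In the unheated hindgut library numbered 23 and the heated one numbered 25, a single gene model took 7.11% and 7.19% of the total. As a check of the drugs, bambi, a BMP-induced pseudoreceptor, fell under DMH1 (log2 difference -1.91 for bambi.L and -1.73 for bambi.S in foregut), and axin2, a feedback target of Wnt signalling, rose under BIO in foregut (3.19 for axin2.L and 2.89 for axin2.S). In hindgut under BIO axin2.S rose (1.52) and axin2.L did not pass (0.49). Heated explants gave no call for dkk1: dkk1.L differed by -0.20 and dkk1.S by -0.07 in foregut, and by -0.25 and -0.22 in hindgut, none of them past the threshold. The summed Wnt pathway list, which holds dkk1 itself, was lower in the heated libraries without overlap. It was at 130.2 and 153 TPM against 208 and 201 in foregut, and at 402 and 423 against 858 and 725 in hindgut. None of its 27 features was called in either region. Such separation of 2 against 2 libraries was not particular to this list. The cement gland, primitive myeloid and BMP pathway sums were higher after heat without overlap in both regions. The hatching gland, neural crest and pronephros sums were lower in the same way. None of the 15 heat shock features tested was called in either region. Axin2.L in hindgut was at 13.54 and 5.89 TPM after heat and 23.4 and 16.3 without (log2 difference -1.04, SE 0.36, 95% interval -1.78 to -0.30, adjusted p 1). Whether the dkk1 features count transcripts of the transgene is not given in the sources used here, so the libraries labelled heated are called by that label only.

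The label of the source libraries was checked against cell type markers, and the data went partly against it. Lists of marker genes are given as the sum of their TPM in each library. Endoderm markers, at 3105 and 6613 TPM in the FG_endo libraries, were at 53.7 and 63.1 in FG_meso. Epidermis markers stood at 29466 and 39088 TPM in FG_meso against 2812 and 2866 in FG_endo, and 33 of the 35 epidermis features had a mean of 1 TPM or more. Itln1.L, an intelectin of the larval epidermis, had a mean of 6928 TPM in FG_meso and 4.63 in FG_endo. Cement gland markers, from the mucus-secreting ectodermal organ at the anterior tip of the tadpole, stood at 5626 and 2853 TPM against 24.1 and 48.7 in FG_endo. Primitive myeloid markers were at 1071 and 930.1 TPM against 502 and 674. The sum of the cardiac and lateral plate markers did not separate the layers, at 525 and 405 TPM in FG_meso and 376 and 955 in FG_endo. Of their 58 features, 6 were at 0 in both FG_meso libraries. This sum mixes unlike genes: gata4 is also on the endoderm list, while hand2.S passed the values of the rule. The list's features are not given singly here. The sum of the head and pharyngeal mesoderm markers did not separate the layers either, at 127 and 135 TPM in FG_meso and 133 and 282 in FG_endo. HG_meso also held epidermis markers, at 25720 and 29685 TPM, but cement gland markers were lower there, at 211 and 254. The libraries labelled foregut mesoderm therefore hold ectodermal markers at high levels beside myeloid ones. High epidermis markers are shared with HG_meso. The members are named below by the library label only. The part of the ectodermal markers in the choice of the members was not tested. In bulk tissue, fewer cells of a type and less RNA per cell cannot be told apart.

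The members split by how evenly the 2 FG_meso libraries showed them. Tcf21.L stood at 22.8 and 24.6 TPM in replicates 1 and 2, and tmem119.L at 12.7 and 12.1. These 2 genes were level in both libraries. The other 7 were higher in replicate 1, by 1.93-fold for asb9.L (94.9 and 49.2 TPM) up to 5.78-fold for Xetrov90024887m.S (17.4 and 3.01 TPM). Cda.L stood at 88.5 and 28.6 TPM, MGC84183.S at 32.6 and 10.9, trim16.L at 32.3 and 6.71, and sh3bgrl2.S at 23.9 and 6.43. Sel1l3.S was at 19.1 and 8.09 TPM. Over the 8799 features with a mean of at least 10 TPM, the median ratio of replicate 1 to replicate 2 was 0.981. How many of these features were as uneven as the members was not counted. A rule on the mean of 2 libraries also admits genes that are high in only 1 of them. The summed cement gland list was 1.97 times higher in replicate 1 and the epidermis list was lower there, at 0.754 times. The paraxial mesoderm and muscle list and the hatching gland list were also higher there, at 1.79 and 1.67 times. Their part in the members' difference between the libraries was not tested. From replicate 2 alone, only tcf21.L and tmem119.L would pass the rule, and from replicate 1 alone 18 genes would.

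**Figure D1:**
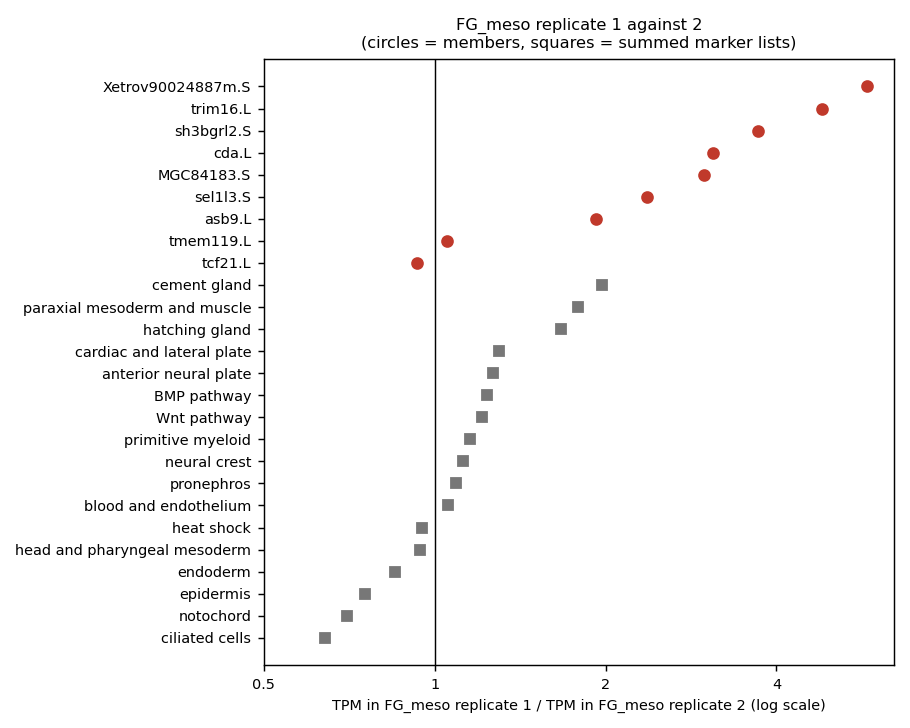
Level in FG_meso replicate 1 divided by the level in replicate 2 (log-scaled x axis, TPM over TPM), with members as circles and summed marker lists as squares, 1 point for each. Tcf21.L and tmem119.L lie near 1 (0.93 and 1.05), and the other 7 members lie between 1.93 and 5.78. The highest lists are cement gland at 1.97, paraxial mesoderm and muscle at 1.79 and hatching gland at 1.67.

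In the other layers the members were lower than in FG_meso, as the rule required, with means from 0 up to 16.4 TPM (asb9.L in HG_meso). Sel1l3.S was near 0 in all 6 libraries of FG_endo, HG_endo and HG_meso, with no value above 0.11 TPM. Sh3bgrl2.S was at 0 in HG_meso and HG_endo and at 0 and 1.36 TPM in FG_endo. Asb9.L and cda.L were at 0 in both FG_endo libraries but were found in HG_meso, at 21.8 and 11 TPM for asb9.L and at 18.0 and 4.84 for cda.L. Tcf21.L had 6.21 and 3.28 TPM in HG_meso, 0.46 and 3.91 in FG_endo and 0 in both HG_endo libraries. Some members were thus near 0 in every other layer, and others were found at a lower level in HG_meso. For MGC84183.S and trim16.L the highest other layer was endoderm, HG_endo at 4.515 TPM and FG_endo at 3.94 TPM. Their HG_meso means were close to these, at 3.995 and 3.775 TPM. MGC84183.S and trim16.L sat just inside the fold limit, at 4.12 and 4.15 times the highest other layer. Just outside it were Xetrov90024734m.L at 3.997 and cnfn.1.S at 3.61. On the level limit the lowest member was Xetrov90024887m.S at 10.2 TPM, and just outside were arr3.L at 9.73 and crx.S at 7.22. These values chose the members and are a description, with no test.

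Several members were higher in whole vehicle foregut explants than in the layer that named them. The mean in FG_DMSO was 43.0 TPM for sel1l3.S against 13.6 in FG_meso, 54.2 against 15.2 for sh3bgrl2.S and 62.7 against 21.7 for MGC84183.S. These 3 were thus 2.89 to 3.58 times higher in FG_DMSO. Asb9.L (70.5 and 72.0 TPM) and tcf21.L (19.1 and 23.7) were close in both. In the unheated whole foregut of the second experiment, sel1l3.S was far lower, with a mean of 3.66 TPM. MGC84183.S was also below FG_meso there, at 14.2 TPM, while sh3bgrl2.S was above it, at 26.4. The summed cement gland list moved with sel1l3.S, at 6451 to 10139 TPM in FG_DMSO and 1169 to 1517 in FG_noHS. The primitive myeloid list was lower in FG_noHS too (875 to 954 TPM against 1093 to 1582), and the epidermis list was higher (22721 to 26332 against 13187 to 20709.5). The experiments differ in handling as well as in these markers, and no test was made between them.

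**Figure D2:**
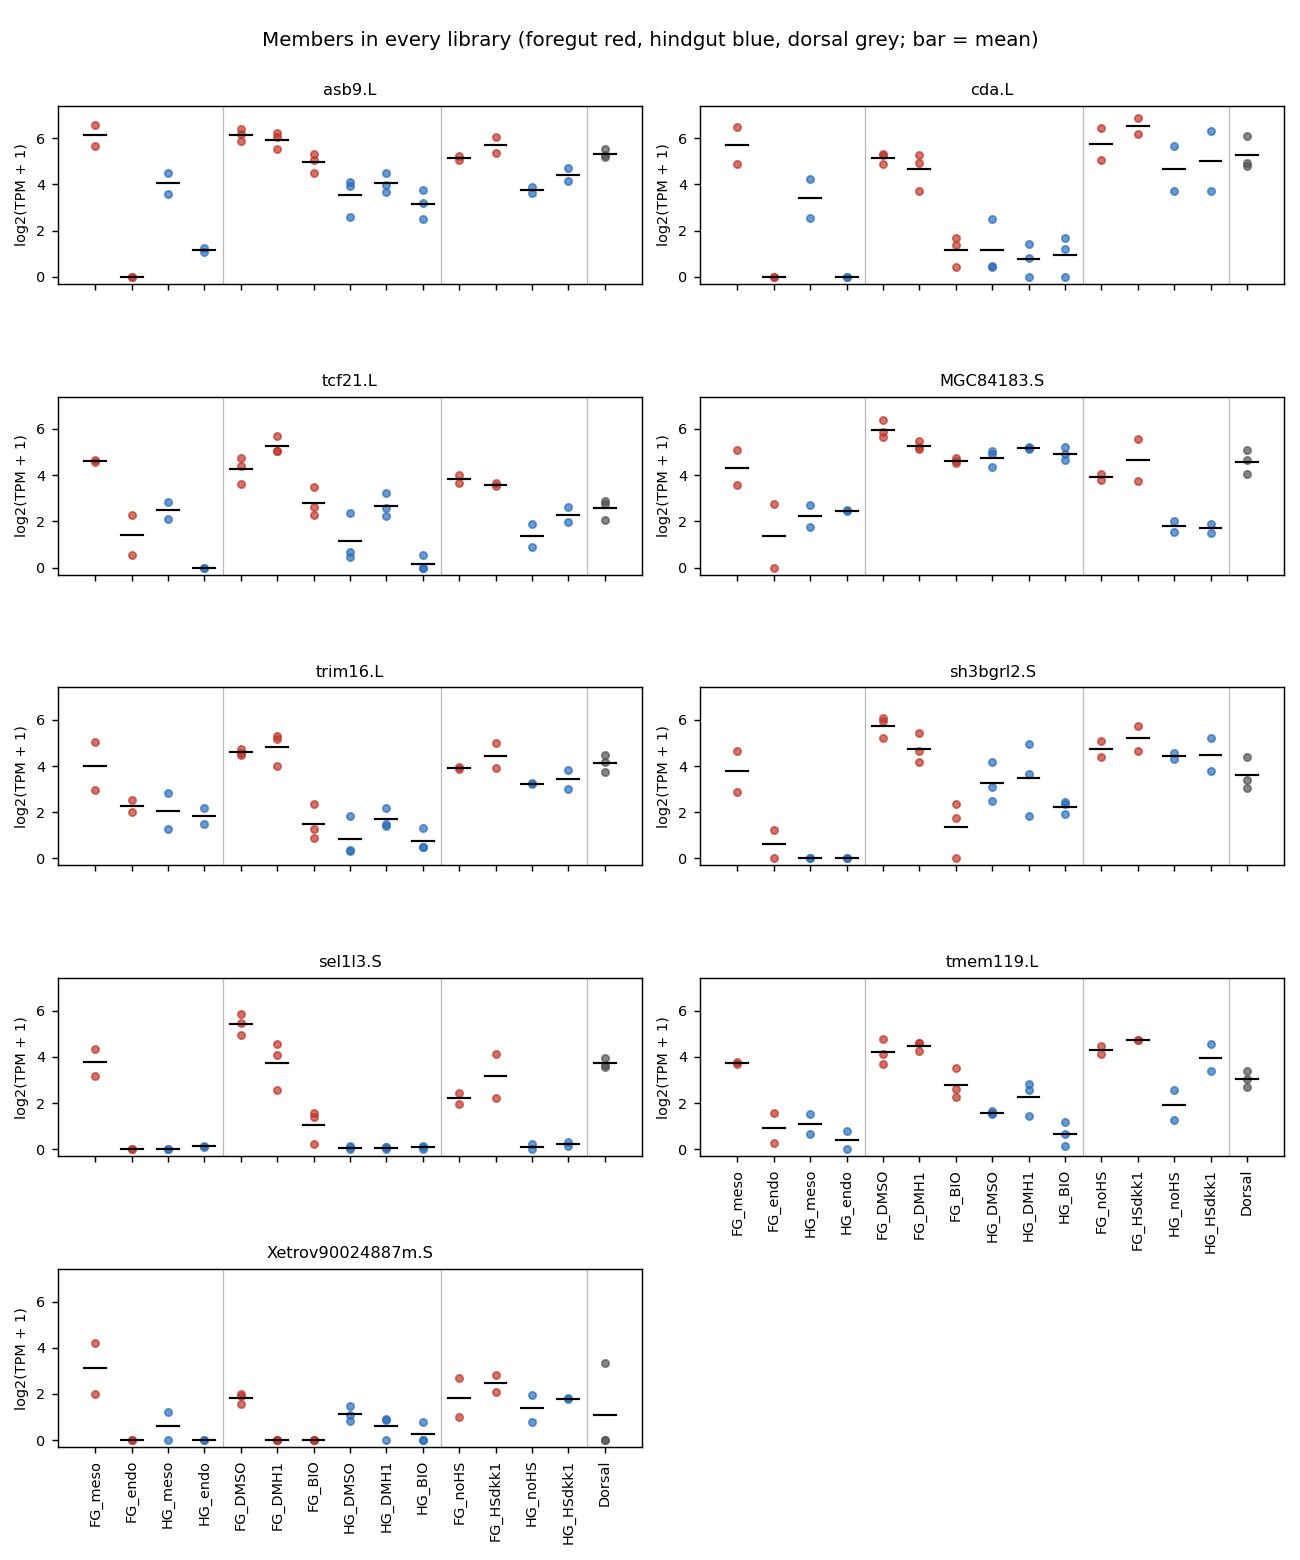
Level of each member in every library as log2(TPM + 1), with 1 point per library, a bar at the group mean, and grey lines between the separated layers, the inhibitor experiment, the heat experiment and the dorsal explants. In FG_DMSO sel1l3.S lies at 30.0 to 56.3 TPM, above both FG_meso libraries, and in HG_DMSO it lies at 0.09 TPM or less.

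The libraries that did not choose the members allow tests. Whole foregut and hindgut explants were compared with limma on log2(TPM + 1), over the 28108 features that reached 1 TPM in 2 or more of 29 libraries, and a feature was called at a Benjamini-Hochberg adjusted p under 0.05. All 9 members passed that filter. In the vehicle explants 8 of 9 members were lower in hindgut and none was higher. Over all features tested, 6.65% were lower and 2.88% higher. The rule had set each member at least 4 times above HG_meso and HG_endo. The choice thus favoured a lower level in whole hindgut, which is not so for all features. The members' median log2 difference was -2.62, and that of all features was -0.12, which median-of-ratios scaling moved to 0.01. With that scaling 1120 features were higher and 1184 lower, against 810 and 1870 without it.

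Sel1l3.S fell to the floor of the table. It stood at 30.0, 42.9 and 56.3 TPM in the FG_DMSO libraries and at 0.09, 0.06 and 0 in HG_DMSO. No hindgut library came near a foregut one. Its log2 difference was -5.35 (SE 0.43, adjusted p 1.13e-08), a size that depends on the added 1 TPM.

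Cda.L, trim16.L and tcf21.L were next in size. Cda.L, the cytidine deaminase, was at 38.1, 37.5 and 28.9 TPM in foregut and 4.67, 0.36 and 0.40 in hindgut (log2 difference -4.01, SE 0.69, adjusted p 0.000311). Trim16.L was at 25.9, 22.5 and 21.0 TPM and at 2.57, 0.24 and 0.27 (-3.76, SE 0.43, adjusted p 1.85e-06). The groups did not overlap, and hindgut replicate 1 was the highest hindgut library for each. Tcf21.L, the mesenchyme factor, was at 25.7, 11.3 and 20.2 TPM in foregut and 4.09, 0.36 and 0.60 in hindgut (-3.10, SE 0.43, adjusted p 2.59e-05), again with replicate 1 highest among the hindgut libraries.

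Smaller differences were found for the remaining members. Asb9.L was at 57.0, 72.2 and 82.3 TPM in foregut and 4.98, 14 and 16 in hindgut (log2 difference -2.62, SE 0.35, adjusted p 1.32e-05). Tmem119.L was at 26.6, 11.9 and 16.4 TPM and at 1.90, 1.96 and 2.17 (-2.61, SE 0.40, adjusted p 9.33e-05). Neither gene overlapped between the regions. Sh3bgrl2.S was at 36.3, 60.4 and 65.9 TPM in foregut and 16.8, 7.58 and 4.67 in hindgut (-2.49, SE 0.65, adjusted p 0.0147), a call that ended when FG_DMSO replicate 2 or 3 or HG_DMSO replicate 2 or 3 was left out (adjusted p 0.0506, 0.0581, 0.054 and 0.0757) and at a pseudocount of 0.1 (0.0977). MGC84183.S, at 57.4, 48.8 and 81.9 TPM against 28.8, 19.3 and 31.6, differed least among the called members (-1.20, SE 0.33, adjusted p 0.0197). That call was lost without FG_DMSO replicate 3 or HG_DMSO replicate 2 (0.108 and 0.114), with median-of-ratios scaling (0.0625), with all 37 libraries in the fit (0.153) and without the inhibitor libraries numbered 1 (0.122). Xetrov90024887m.S, at 1.96 to 2.94 TPM in foregut and 0.79 to 1.76 in hindgut, did not pass (-0.69, SE 0.59, adjusted p 0.569).

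Marker lists of other cell types moved along the same axis. The summed cement gland list was 146 to 170.3 TPM in HG_DMSO against 6451 to 10139 in FG_DMSO, and 10 of its 12 features were lower and 1 higher. Of 39 primitive myeloid features tested, 21 were lower in hindgut (103 to 146 TPM summed, against 1093 to 1582). Of 32 anterior neural plate features 24 were lower and 2 higher (69.7 to 124 TPM summed, against 385 to 1054). Of 26 blood and endothelium features 12 were lower and none higher, while their sums overlapped (875 to 983 TPM in hindgut, 756 to 1014 in foregut). Paraxial mesoderm and muscle features went the other way, with 8 of 14 higher in hindgut and 1 lower. The head and pharyngeal mesoderm list, which holds tcf21, had 10 of 21 features lower and 1 higher. The cardiac and lateral plate list had 14 of 43 lower and 4 higher. Epidermis markers, 19175 to 23675 TPM in hindgut and 13187 to 20709.5 in foregut, had 2 of 33 features lower and 1 higher. Their part in the members' differences was not tested.

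The unheated explants of the second experiment gave the same direction in all 9 members, and fewer of them were called. The choice of the members favoured this direction here too. There 4 of 9 were called lower in hindgut and none higher, against 0.936% lower and 0.772% higher over all features. The 4 were tcf21.L (11.6 and 15.0 TPM in FG_noHS, 2.72 and 0.83 in HG_noHS), tmem119.L (20.9 and 16.6 against 4.85 and 1.40), MGC84183.S (15.7 and 12.8 against 3.10 and 1.89) and sel1l3.S (4.38 and 2.94 against 0 and 0.17). Their log2 differences were -2.44 (SE 0.53, adjusted p 0.0128), -2.39 (SE 0.49, 0.00852), -2.14 (SE 0.40, 0.00343) and -2.09 (SE 0.53, 0.0443). Not 1 of these calls held without FG_noHS replicate 1, without the hindgut library numbered 23, or with these groups fitted alone, where 0 members were called. Without FG_noHS replicate 2, 2 were called, and sel1l3.S was also lost without the hindgut library numbered 12 (0.211), with no filter (0.0682) and at a pseudocount of 5 (0.586). Tcf21.L was lost at a pseudocount of 0.1 (0.0724), and MGC84183.S with all 37 libraries (0.07). With the replicate block described in the processing, asb9.L (36.4 and 31.7 against 13.9 and 11.5 TPM) was called as well (adjusted p 0.0217). HG_noHS carries no block term. The block therefore does not pair these regions, and it changes only the estimated spread. Over all features the block gave 357 higher and 458 lower, against 217 and 263 without it. Cda.L, at 0.36 to 4.67 TPM in vehicle hindgut, was at 11.9 and 49.9 TPM in HG_noHS and 32.1 and 85.3 in FG_noHS, so that the regions overlapped. Trim16.L (8.61 and 8.25 against 13.6 and 14.6 TPM) was also well above its vehicle hindgut level of 2.57 TPM or less. Sh3bgrl2.S (22.5 and 18.6 against 32.5 and 20.2) was above its vehicle hindgut libraries, the highest of which was at 16.8 TPM. Whether the regional difference itself differed between the experiments was not tested. In the same comparison 5 of 12 cement gland features were lower and 1 higher, with the list at 104 and 124 TPM in HG_noHS and 1169 and 1517 in FG_noHS. Primitive myeloid features were lower in 10 of 39 and higher in none, and head and pharyngeal mesoderm features lower in 6 of 21 and higher in 1. Paraxial mesoderm and muscle features were higher in 9 of 14 and lower in none. The part of these lists was not tested.

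Under BIO the same number of members was lower in foregut. In FG_BIO 8 of 9 were lower than in FG_DMSO and none was higher, against 6.17% lower and 2.93% higher over all features. Median-of-ratios scaling gave 1218 features higher and 1282 lower, against 823 and 1733 without it. The members' median log2 difference was -1.82, beside -0.09 for all features. FG_DMSO is also the reference of the regional comparison, so these counts share their control libraries.

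Sel1l3.S, the lowest member in hindgut, was also close to 0 after BIO. It stood at 1.61, 1.93 and 0.19 TPM in the FG_BIO libraries, against 30.0 to 56.3 in vehicle (log2 difference -4.35, SE 0.43, adjusted p 5.5e-07). Every treated library was far below every vehicle library. Sh3bgrl2.S was at 4.13, 2.37 and 0 TPM (-4.37, SE 0.65, adjusted p 0.000109), cda.L at 2.23, 1.56 and 0.36 (-3.99, SE 0.69, adjusted p 0.000587) and trim16.L at 4.14, 1.44 and 0.84 (-3.08, SE 0.43, adjusted p 5.94e-05). Replicate 3 was the lowest for all 4 of these genes.

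The other members fell by less. Tmem119.L was at 10.5, 5.09 and 3.83 TPM after BIO (log2 difference -1.40, SE 0.40, adjusted p 0.0304), and tcf21.L at 10.1, 3.82 and 5.22 (-1.47, SE 0.43, adjusted p 0.035). Asb9.L, at 31.9, 38.6 and 21.8 TPM, kept the highest level of the 9 members by library mean (-1.19, SE 0.35, adjusted p 0.0326). MGC84183.S was at 23.4, 25.8 and 22.1 TPM (-1.33, SE 0.33, adjusted p 0.0116). Calls of these 4 rested on single libraries. Without FG_DMSO replicate 3 all 4 were lost (adjusted p 0.0788 to 0.134), which left 4 members called. Asb9.L was also lost without FG_DMSO replicate 2 or FG_BIO replicate 1 or 3 (0.0708 to 0.166), and tcf21.L and tmem119.L without FG_DMSO replicate 1 or FG_BIO replicate 2 or 3 (0.0925 to 0.159). Both were lost at a pseudocount of 0.1 (0.169 and 0.101) and with the groups alone (0.0674 and 0.078), and tcf21.L also with no filter, summed copies or all 37 libraries (0.0515 to 0.0585). Leaving out the libraries numbered 1, or fitting all 37 libraries, ended the call of MGC84183.S (0.0906 and 0.103). Xetrov90024887m.S was at 0 in all 3 FG_BIO libraries and 1.96 to 2.94 TPM in vehicle, and was called only with the block (adjusted p 0.0569 without it, 0.0383 with it) or with the smaller pseudocount or its groups alone. Over all features the block gave 1526 higher and 3157 lower, against 823 and 1733 without it.

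Under BIO in foregut the summed cement gland list was 364 to 1494 TPM, against 6451 to 10139 in vehicle, with 8 of 12 features lower and 2 higher. Replicate 3 was again the lowest library, at 364 TPM, as it was for the primitive myeloid (113 TPM) and anterior neural plate (264 TPM) lists. The cardiac and lateral plate list was highest in that replicate, at 439 TPM. Primitive myeloid markers summed to 113 to 207 TPM, with 20 of 39 features lower and 1 higher. Cardiac and lateral plate features were lower in 15 of 43 and higher in 2, and head and pharyngeal mesoderm features were lower in 2 of 21 and higher in 1. Of 26 blood and endothelium features 17 were lower and none higher, with sums of 532 to 597 TPM against 756 to 1014. Anterior neural plate features were lower in 8 of 32 and higher in 3. Of 33 epidermis features 5 were lower and none higher. Among signalling genes, 15 of 40 BMP pathway features were lower and 4 higher, and 16 of 27 Wnt pathway features were higher and none lower. Their part in the members' fall was not tested.

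In hindgut BIO moved no member past the threshold. By limma 0 of 9 were called in HG_BIO against HG_DMSO, and 0.128% of all features were higher and 0.103% lower. Sel1l3.S was already near 0 in HG_DMSO, and its HG_BIO values were 0, 0.11 and 0.07 TPM. Tcf21.L read 0.44, 0 and 0 TPM after BIO (log2 difference -0.98, 95% interval -1.88 to -0.08, adjusted p 0.51), and tmem119.L 0.11, 1.25 and 0.58 (-0.93, interval -1.76 to -0.09, adjusted p 0.499). Sh3bgrl2.S had the largest fall of the members, uncalled, at 2.76 to 4.45 TPM after BIO against 4.67 to 16.8 in vehicle (log2 difference -1.01). Asb9.L read 4.73, 12.3 and 8.06 TPM after BIO and overlapped its vehicle libraries at 4.98, 14 and 16. The difference between the BIO effects in the regions was tested directly. For 2 members the hindgut effect was above the foregut effect, sel1l3.S by 4.37 (SE 0.61, adjusted p 0.000282) and trim16.L by 3.01 (SE 0.61, 0.0123), against 0.701% of features higher and 0.21% lower. Both stood at 2.57 TPM or less in every HG_DMSO library, where a further fall has little room on this scale. The call of trim16.L was lost without FG_BIO replicate 3 (0.051), with its groups alone (0.0708) and at the smaller pseudocount (0.0656). With the block 5 members were called, with cda.L (3.80, adjusted p 0.0331), sh3bgrl2.S (3.36, 0.0219) and MGC84183.S (1.51, 0.0469) as well. Over all features the block gave 385 higher and 118 lower, against 197 and 59 without it.

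Blocking BMP receptors with DMH1 left every member uncalled in both regions in the fit without a block. In FG_DMH1 0 of 9 were called by limma, and 0.299% of all features were higher and 0.694% lower. Sel1l3.S came closest, at 4.85, 22.6 and 16.0 TPM against 30.0, 42.9 and 56.3, with no overlap (log2 difference -1.68, SE 0.43, adjusted p 0.0697), and with the block it was called (adjusted p 0.018). Over all features the block gave 267 higher and 456 lower, against 84 and 195 without it. Tcf21.L read 32.5, 32.1 and 50.5 TPM, above all vehicle libraries (1.01, SE 0.43, adjusted p 0.45). Xetrov90024887m.S was at 0 in all 3 libraries (-1.82, SE 0.59, adjusted p 0.204). Replicate 1 had the lowest sel1l3.S, cda.L (12.3 against 37.8 and 29.7 TPM) and trim16.L (15.0 against 38.7 and 35.2). The summed cement gland list in these libraries was 1857, 6822 and 3993 TPM, lowest in the same replicate. Primitive myeloid (561 TPM), cardiac and lateral plate (586) and epidermis (14469) lists were also lowest there. The anterior neural plate (1164 TPM) and head and pharyngeal mesoderm (779) lists were highest there. The part of these lists was not tested. Leaving out FG_DMSO replicate 1 or FG_DMH1 replicate 2 brought sel1l3.S past the threshold (adjusted p 0.0467 and 0.0227). None of the 12 cement gland features was called in FG_DMH1, while 17 of 40 BMP pathway features were lower and none higher.

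In HG_DMH1 0 of 9 members were called by limma, and 1.11% of all features were higher and 0.256% lower. The lowest adjusted p was that of tcf21.L, at 3.66, 4.91 and 8.34 TPM against 4.09, 0.36 and 0.60 in vehicle (log2 difference 1.51, SE 0.43, adjusted p 0.0983). HG_DMSO replicate 1 overlapped the treated libraries, and without it the difference was called (adjusted p 0.00572), as it was with the block (0.0365). Over all features the block gave 778 higher and 166 lower, against 313 and 72 without it. Without all inhibitor libraries numbered 1, tcf21.L and trim16.L (adjusted p 0.00441 and 0.048) were called. Trim16.L read 1.79, 1.65 and 3.53 TPM. Of the 21 head and pharyngeal mesoderm features, 5 were higher in HG_DMH1 and none lower, and in FG_DMH1 2 were higher and none lower. No member was called for a difference between the regions in its DMH1 effect (0 of 9 by limma, against 0.189% of features higher and 0.0178% lower).

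The heat pulse meant to induce Dkk1 gave no call among the members in either region. In FG_HSdkk1 0 of 9 were called by limma, and 0.0142% of all features were higher and 0.00712% lower. The uncalled differences were positive for 8 of 9 members, with a median log2 difference of 0.56, beside 0.01 for all features. The summed members stood at 250 to 326 TPM after heat and 172 to 200 without. Sel1l3.S was at 16.3 and 3.66 TPM after heat and 4.38 and 2.94 without (log2 difference 0.97, 95% interval -0.13 to 2.07), and the groups overlapped. Heated replicate 1 was the high one, and it was also high for MGC84183.S (47.0 against 12.3 TPM in replicate 2), trim16.L (30.8 against 13.9) and sh3bgrl2.S (52.0 against 24.4). The cement gland list was at 4784 TPM in heated replicate 1, 1736 in heated replicate 2 and 1169 to 1517 in the unheated libraries. Primitive myeloid (1821 and 1221 TPM) and epidermis (27181 and 21441) lists were also higher in heated replicate 1 than in replicate 2. The anterior neural plate list was lower there, at 182 and 284 TPM. The part of these lists was not tested. Tcf21.L and tmem119.L were level between the 2 heated libraries, at 11.8 and 10.4 TPM and at 25.2 and 25.7.

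In HG_HSdkk1 0 of 9 members were called by limma, against 0.00712% of features higher and 0% lower. Here too 8 of 9 uncalled differences were positive, with a median of 0.34 beside 0.01 for all features. The summed members stood at 119 to 133 TPM after heat and 70.4 to 93.3 without. The lowest adjusted p was that of tmem119.L, at 22.8 and 9.35 TPM after heat and 4.85 and 1.40 without (log2 difference 2.07, SE 0.49, 95% interval 1.04 to 3.09, adjusted p 0.371), with no overlap between the groups. Cda.L was high in the libraries numbered 23 and 25 (49.9 and 79.2 TPM) and low in those numbered 12 and 14 (11.9 and 12.1 TPM), whichever their heat treatment. Those same libraries, 23 and 25, carry the dominant gene model named above. The part of that model was not tested. The cement gland list was at 214 to 330 TPM after heat and 104 to 124 without. The primitive myeloid list was at 198 to 309 TPM against 105 to 137, and 1 of its 39 features tested was higher and none lower. The hatching gland, neural crest, pronephros and Wnt pathway sums were lower. The part of these lists was not tested.

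Dorsal explants had 5 of 9 members lower than FG_DMSO and none higher, in a comparison where 25.9% of all features were lower and 12.2% higher. With median-of-ratios scaling 4836 features were higher and 4788 lower, against 3434 and 7278, and the median of all features moved from -0.24 to -0.05. The 5 were sh3bgrl2.S (9.45, 19.9 and 7.30 TPM, log2 difference -2.13, SE 0.65, adjusted p 0.0123), tcf21.L (6.4, 3.19 and 5.7 TPM, -1.69, SE 0.43, 0.00363), sel1l3.S (11, 14.3 and 11.7 TPM, -1.69, SE 0.43, 0.00366), MGC84183.S (32.9, 15.4 and 24.0 TPM, -1.37, SE 0.33, 0.00208) and tmem119.L (9.5, 5.43 and 7.31 TPM, -1.15, SE 0.40, 0.0273). Tmem119.L lost its call with median-of-ratios scaling (-0.91, adjusted p 0.0747) and without FG_DMSO replicate 1 or 3 or Dorsal replicate 2 (0.054 to 0.132). Without Dorsal replicate 3 it and sh3bgrl2.S were lost (0.0588 and 0.0566), as they were at a pseudocount of 0.1 (0.0886 and 0.073). Xetrov90024887m.S, at 8.98, 0 and 0 TPM, was called lower only without Dorsal replicate 1 (-1.82, adjusted p 0.00167). Asb9.L was called only with the block (-0.83, adjusted p 0.0649 without it, 0.0146 with it), at the larger pseudocount or with the groups alone. The dorsal libraries carry no block term. Here the block changes only the estimated spread, and the call with it rests on no pairing. Over all features the block gave 4161 higher and 8964 lower. Cda.L, at 66.7, 26.7 and 28.9 TPM, overlapped whole foregut (0.11, 95% interval -1.32 to 1.53). The cement gland list stood at 3079 to 3768 TPM in the dorsal libraries, above every hindgut library. Marker lists of other cell types moved in the same comparison, with 25 of 33 epidermis, 26 of 39 primitive myeloid, 19 of 26 blood and endothelium and 14 of 17 endoderm features lower and 1 of each list higher. Paraxial mesoderm and muscle features were higher in 14 of 14 (5644 to 6143 TPM summed, against 10.5 to 13.95 in FG_DMSO), and anterior neural plate features in 20 of 32 with none lower. The part of these lists was not tested.

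Sel1l3.S was high in libraries with a high cement gland list, which is a description over 37 libraries that share groups and treatments. The rule had set sel1l3.S high in FG_meso and lower in the other layers. From the list, agr2.L, agr2.S, ag1.L, ag1.S and pitx1.L passed the same values. In the layer libraries this order was thus partly fixed by the choice. Every library of FG_DMSO, FG_DMH1, FG_noHS, FG_HSdkk1, FG_meso and Dorsal, with this list at 1169 TPM or more, had at least 2.94 TPM of sel1l3.S. No hindgut library, with the list at 330 TPM or less, had more than 0.26 TPM of sel1l3.S. In FG_BIO the list was at 1164, 1494 and 364 TPM, and sel1l3.S was at 1.61, 1.93 and 0.19. Cda.L did not keep to this order, since it was at 49.9 TPM in the unheated hindgut library numbered 23, with the list at 124 TPM, and at 2.23 in FG_BIO replicate 1. Tcf21.L was at 22.8 and 24.6 TPM in FG_meso with the list at 5626 and 2853, and at 32.5 TPM in FG_DMH1 replicate 1 with the list at 1857.

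**Figure D3:**
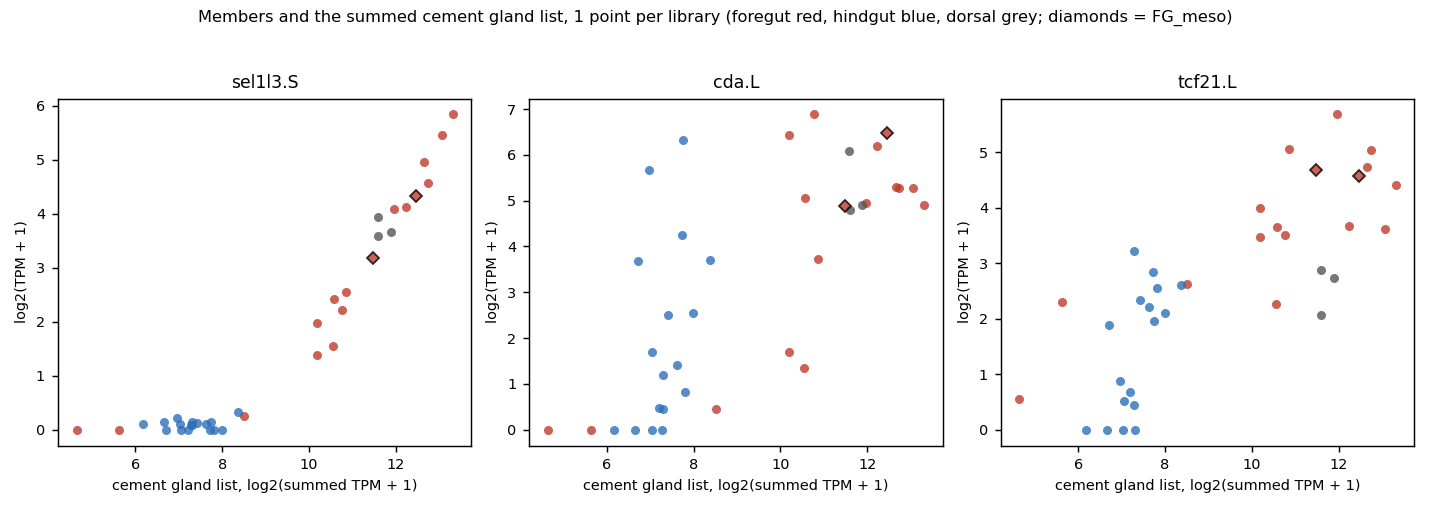
Level of sel1l3.S, cda.L and tcf21.L (y axis, log2(TPM + 1)) against the summed cement gland list (x axis, log2(summed TPM + 1)) in all 37 libraries, with foregut in red, hindgut in blue, dorsal in grey and FG_meso as diamonds. Sel1l3.S lies at 0.26 TPM or less in every hindgut library and is higher in foregut libraries with a higher list, while cda.L is at up to 79.2 TPM in hindgut libraries with a low list. The layer libraries among these points chose the members.

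The other homeologs were read beside the members. How reads were divided between near-identical copies by the authors' estimation is uncertain, and nothing here separates it from expression. Sh3bgrl2.L was at 60.2 to 90.8 TPM in FG_DMSO, 73.2 to 97.7 in HG_DMSO and 58.1 to 97.7 in the separated layers, where sh3bgrl2.S was 23.9 TPM or less. Summing the copies reduced the hindgut difference of sh3bgrl2 to -0.39 (adjusted p 0.439).

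Tmem119 split in opposite directions. Tmem119.S was at 5.75, 6.52 and 6.57 TPM in FG_DMSO and at 11, 28.7 and 24.9 in HG_DMSO, higher in hindgut (log2 difference 1.53, SE 0.40, adjusted p 0.0155) where tmem119.L was lower. That call was lost without FG_DMSO replicate 1 or HG_DMSO replicate 2 or 3 (0.0591 to 0.0945). Summed over both copies, tmem119 was not called between the regions (-0.11, adjusted p 0.932), and its fall under BIO in foregut was no longer called (-0.55, adjusted p 0.45). Trim16.S was at 7.89 and 4.83 TPM in FG_endo and at most 2.14 in every other library. Cda.S, tcf21.S and sel1l3.L stayed at or below 2.61 TPM in every library and did not enter the test. Asb9 and MGC84183 have no other copy in the table.

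**Figure D4:**
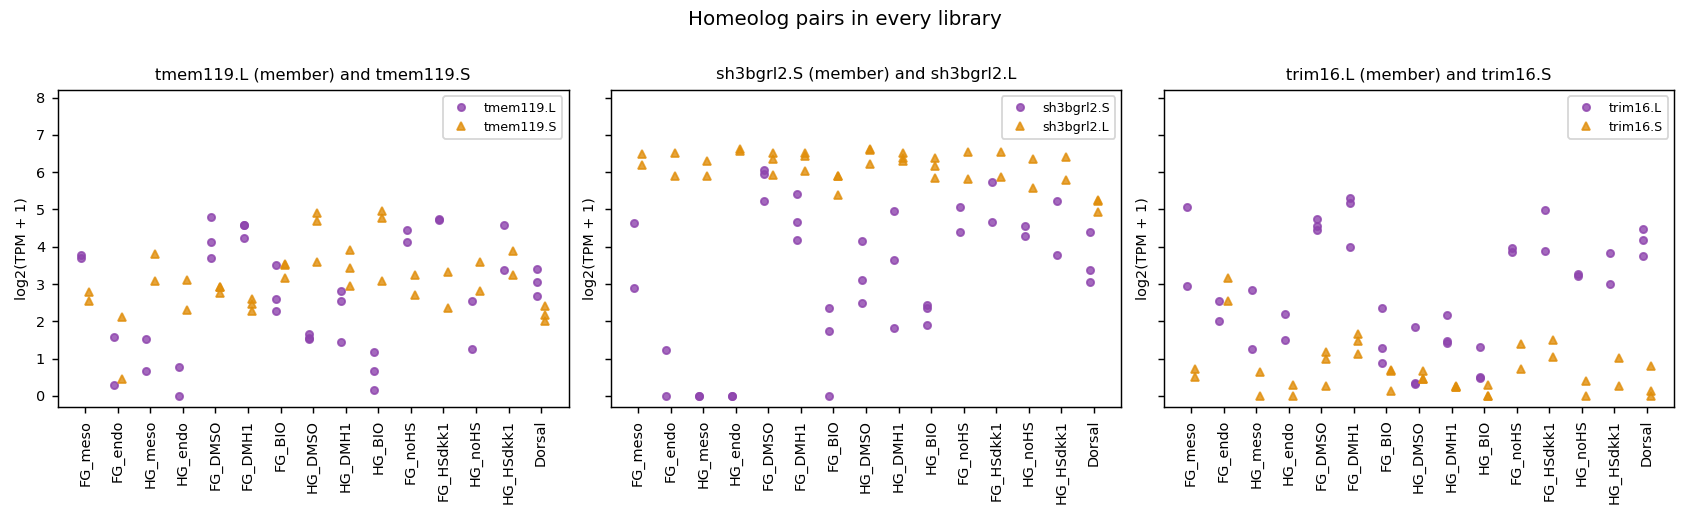
Both homeologs of 3 members in every library, as log2(TPM + 1), with the member as a purple circle and its other copy as an orange triangle. Sh3bgrl2.L stays at 29.6 to 97.7 TPM in all libraries, and tmem119.S is above tmem119.L in HG_DMSO and HG_BIO.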

How the data were processed

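Per the submitters' processing notes, the authors made the deposited TPM values from stranded mRNA libraries with FastQC, Trimmomatic and RSEM. Versions and the genome build are not given in the sources used here. The labels' protocols state independent biological replicates. Names tied 33 of the 37 columns to a sample, and 4 (hindgut heat experiment) only to a group. TPM keeps no depth, so precision rests on the 2 or 3 libraries a group.

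Members and marker lists were chosen with earlier results of these data known. The 8 layer libraries that chose the members stayed out of the test. Of the features that passed the rule, 1 is not reported here and enters no count of members. log2(TPM + 1) was fitted with group means for 11 groups (29 libraries) in limma 3.58.1 under R 4.3.3, with the trend option (18 residual and 3.84 prior degrees of freedom). The filter kept 28108 features (69.8%). Adjusted p is Benjamini-Hochberg over these, within a comparison. SE is that of the log2 difference. The fit was tested on simulated data.

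Members were named by level, with their other homeologs, the largest called changes, threshold neighbours, and bambi, axin2 and dkk1 as checks. Of the 9 members 7 matched a RefSeq symbol (Xenopus_laevis_v10.1), used for names only. Same-numbered inhibitor libraries deviated together in all 45 pairs (r 0.256 to 0.562), so their numbers pair them, and a fit with the number as a block was added. The block also held the numbers of the foregut heat libraries. Dorsal numbers did not pair (-0.089 to 0.073). The dorsal and the hindgut heat libraries carry no block term. Alternatives were other pseudocounts, filters and scaling, summed homeologs, the block, all libraries, groups alone and single libraries left out. After seeing the data, 2 were added: leaving out both hindgut libraries led by the same gene model, and leaving out all inhibitor libraries numbered 1.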

Additional observations from a re-analysis of the deposited data

Results flagged for a closer look

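For 2 members the test of the difference between the BIO effects in the regions passed the threshold. The hindgut effect minus the foregut effect was 4.37 on the log2 scale for sel1l3.S (adjusted p 0.000282) and 3.01 for trim16.L (0.0123). Sel1l3.S went from 30.0, 42.9 and 56.3 TPM to 1.61, 1.93 and 0.19 in foregut, and from 0.09, 0.06 and 0 to 0, 0.11 and 0.07 in hindgut. Trim16.L was likewise lowered in all 3 foregut libraries, and its hindgut vehicle libraries were at 0.24 to 2.57 TPM. With hindgut levels of these 2 genes this near 0, little further fall could be measured there. The part of this floor in the difference was not tested, and these values do not show that the hindgut responds otherwise. The call of trim16.L was lost without FG_BIO replicate 3 (adjusted p 0.051). With the replicate block 5 members were called, and 385 of all features were higher and 118 lower, against 197 and 59 without it. Among the 5, MGC84183.S and sh3bgrl2.S were not near 0 in vehicle hindgut. MGC84183.S had means of 26.6 TPM in HG_DMSO and 30.0 in HG_BIO, and sh3bgrl2.S of 9.68 and 3.78. In foregut the means of MGC84183.S were 62.7 TPM in FG_DMSO and 23.8 in FG_BIO, and those of sh3bgrl2.S 54.2 and 2.17. Groups of 3 or fewer libraries were not examined for single outlying samples.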

How the results depend on the processing

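Among single results, 27 were called, and of their 431 refits 361 kept the call, 70 lost it and 0 reversed. Of 72 uncalled results, 22 of 1185 refits gained a call and 51 changed sign while uncalled. The number of genes passing the rule was 0 with 5 TPM added to each mean, 18 from FG_meso replicate 1 alone and 2 from replicate 2 alone. The number of members called moved by over 1.5 times in these cases. Dorsal gave 3 at a pseudocount of 0.1. FG_DMH1 gave 1 at a pseudocount of 5 and 1 with the replicate block. HG_DMH1 gave 1 with the block and 2 without the libraries numbered 1. The difference between the BIO effects gave 1 at a pseudocount of 0.1, 5 with the block and 1 with its groups alone. HG_noHS against FG_noHS gave 0 with its groups alone, and 0 without both hindgut libraries led by the same gene model. Leaving out 1 library at a time gave 0 to 1 for FG_DMH1, 4 to 7 for FG_BIO, 1 to 3 for the difference between the BIO effects, 0 to 1 for HG_DMH1, 3 to 6 for Dorsal and 0 to 3 for HG_noHS. The 4 of FG_BIO came without FG_DMSO replicate 3, 5 without FG_BIO replicate 3, and the 3 of Dorsal without Dorsal replicate 3. Where 1 library remained in a group, it was assumed to vary like the others. The causes of these shifts were not tested. The block changed the call of no member in HG_DMSO against FG_DMSO, HG_BIO, either heat comparison or the difference between the DMH1 effects. TPM has no depth, so counting error limits low values by an unknown amount.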
